A study of Homo sapiens with 34 samples.

Results

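The 10 imprinted genes H19, DLK1, MEG3, PEG3, PEG10, MEST, PLAGL1, CDKN1C, SNRPN and NDN were followed by RNA sequencing while human embryonic stem cells became blood cells. They were taken by symbol from the 20255 genes of the expression table, and all 10 were present and passed the filter on low values. H1, an established human embryonic stem cell line, was differentiated through embryoid bodies (EBs, floating cell clusters) into a planar culture with no added hematopoietic cytokines. BMP4 and VEGF, 2 growth factors, started mesoderm formation, and from day 2 VEGF was the only factor added. The 34 samples comprised 1 sample of undifferentiated H1 cells and 3 each of EBs at day 0 (labelled BMP4 and hVEGF) and unsorted cells of days 2 and 4. The other 24 came from sorting by CD43 on days 6, 9, 12 and 16, with 3 positive and 3 negative samples per day. All samples from day 2 were labelled hVEGF, and on day 16 the sort used CD45 as well as CD43. CD43 is a surface protein of the earliest blood cells. All groups came from 1 cell line of 1 genotype, so the replicates do not represent different donors.

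An imprinted gene is expressed mainly from the copy inherited from the mother or mainly from the copy inherited from the father, because one copy carries DNA methylation or other marks set in the germ line. Imprinted genes lie in clusters controlled by a shared imprinting control region, and many of them restrain or promote growth of the embryo and placenta. H19, MEG3 and CDKN1C are known as maternally expressed, and DLK1, PEG3, PEG10, MEST, PLAGL1, SNRPN and NDN as paternally expressed. The values are totals over both copies and do not show which copy was read.

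The values are not read counts. They are whole numbers normalised by the authors for GC content and between samples, and the same set of values recurred in each of the 34 samples, up to a maximum of 90700 that 10 genes reached in every sample. A value therefore reflects a gene's place in its sample after adjustment for GC content. Genes of equal value share a place, large differences at the top are compressed, and depth is unknown. Values are given in replicate order, and values of different genes are not compared because they are not per gene length. Differences are log2 fold changes of value + 1 with their standard errors (SE), tested in limma over the 19788 genes that reached 10 in 3 or more samples. A gene was called at an adjusted p below 0.05 with a fold change above 4. With 3 samples a group, Pearson's r between replicates ranged from 0.951 to 0.987 over 33 pairs.

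Methylation of CG dinucleotides near a start site is the usual mark of an imprinted gene's silent copy, so promoter sequence is shown for 4 genes, with every CG in capitals. H19 and PLAGL1 were the members that rose most between days 2 and 4, and SNRPN and NDN are neighbours on chromosome 15 whose courses differed. Each sequence is the 250 bases before 1 RefSeq start (GRCh38.p14), 5′ to 3′ on the gene's strand.
H19, chr11:2001267-2001516, minus strand: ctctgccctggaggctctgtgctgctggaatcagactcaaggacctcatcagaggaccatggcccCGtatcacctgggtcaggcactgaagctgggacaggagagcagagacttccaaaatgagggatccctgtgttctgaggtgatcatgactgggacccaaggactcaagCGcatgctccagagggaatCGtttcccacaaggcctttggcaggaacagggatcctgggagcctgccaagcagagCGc
PLAGL1, chr6:144008260-144008509, minus strand: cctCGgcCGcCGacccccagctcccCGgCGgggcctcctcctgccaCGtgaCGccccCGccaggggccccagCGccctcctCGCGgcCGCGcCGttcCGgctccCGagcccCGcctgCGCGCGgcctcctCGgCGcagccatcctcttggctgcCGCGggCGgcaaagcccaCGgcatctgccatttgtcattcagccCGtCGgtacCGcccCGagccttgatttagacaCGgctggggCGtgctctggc
SNRPN, chr15:24954737-24954986, plus strand: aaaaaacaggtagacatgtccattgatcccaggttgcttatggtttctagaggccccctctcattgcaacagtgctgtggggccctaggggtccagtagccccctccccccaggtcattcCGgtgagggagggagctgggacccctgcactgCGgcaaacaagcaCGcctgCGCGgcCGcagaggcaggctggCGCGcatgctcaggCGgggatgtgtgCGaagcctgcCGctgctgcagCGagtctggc
NDN, chr15:23687306-23687555, minus strand: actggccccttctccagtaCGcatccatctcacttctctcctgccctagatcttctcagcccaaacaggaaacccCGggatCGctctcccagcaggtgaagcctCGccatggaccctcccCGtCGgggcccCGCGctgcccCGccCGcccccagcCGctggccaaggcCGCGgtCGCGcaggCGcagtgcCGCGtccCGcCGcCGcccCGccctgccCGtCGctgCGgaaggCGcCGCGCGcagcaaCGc
The H19 window held 4 CG dinucleotides and the SNRPN window 12, while the PLAGL1 window held 32 and the NDN window 30. The median over the 35116 RefSeq promoter windows of this length was 11, and 29.3% of windows held fewer than that of H19, 51.5% fewer than that of SNRPN, 87.6% fewer than that of NDN and 90.5% fewer than that of PLAGL1. The GC box GGGCGG, searched on both strands, occurred 2 times in the PLAGL1 window and 4 times in the NDN window, with overlapping matches counted, and in neither of the others, against 42.6% of all windows with at least 1. Neither TATAAA (10.7% of all windows) nor AGATAA (9.17%) occurred in any of the 4. Starts were matched for 6 of the 10 genes, 19 starts in all. For PLAGL1 and SNRPN, which had several, the window shown was the one with most CG dinucleotides. The other PLAGL1 windows held 21, 1, 3 and 1, and the other SNRPN windows 6, 1 and 6. Among these other windows were some with the motifs absent from the 4 shown, and for SNRPN one with a GC box. The contrast between genes and the absences of motifs therefore hold for the windows shown only. DLK1, PEG3, PEG10 and CDKN1C had no entry.

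Between CD43+ and CD43- cells of the same day, no member was called higher in CD43+ cells on any day, and 2, 3, 8 and 7 members were called lower on days 6, 9, 12 and 16. H19 and PEG10 were called lower on all 4 days. DLK1 and CDKN1C were instead higher in CD43+ cells on day 6, by less than 4-fold, and lower by day 12. SNRPN differed by at most 1.18-fold on any day. Of all genes tested, 4.68% were called higher and 7.85% lower on day 6, 8.65% and 12.8% on day 9, 11.8% and 14.4% on day 12, and 12.2% and 13.6% on day 16. The median log2 fold change of the members was -0.65, -1.19, -2.46 and -2.27 on days 6, 9, 12 and 16, beside 0.14, 0.24, 0.22 and 0.14 over all genes tested. At an adjusted p below 0.05 and any fold change, 6, 8, 9 and 8 of the 10 members differed on days 6, 9, 12 and 16, beside 50.3%, 65.7%, 68% and 67.4% of all genes, so at that threshold their number was not far from the background. Of those members 2 were higher in CD43+ cells on day 6, 1 on day 9 and 0 later. At an unadjusted p below 0.05 in limma the numbers were 6, 8, 10 and 8, beside 55.6%, 68.5%, 70.6% and 69.8% of all genes.

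**Figure D1:**
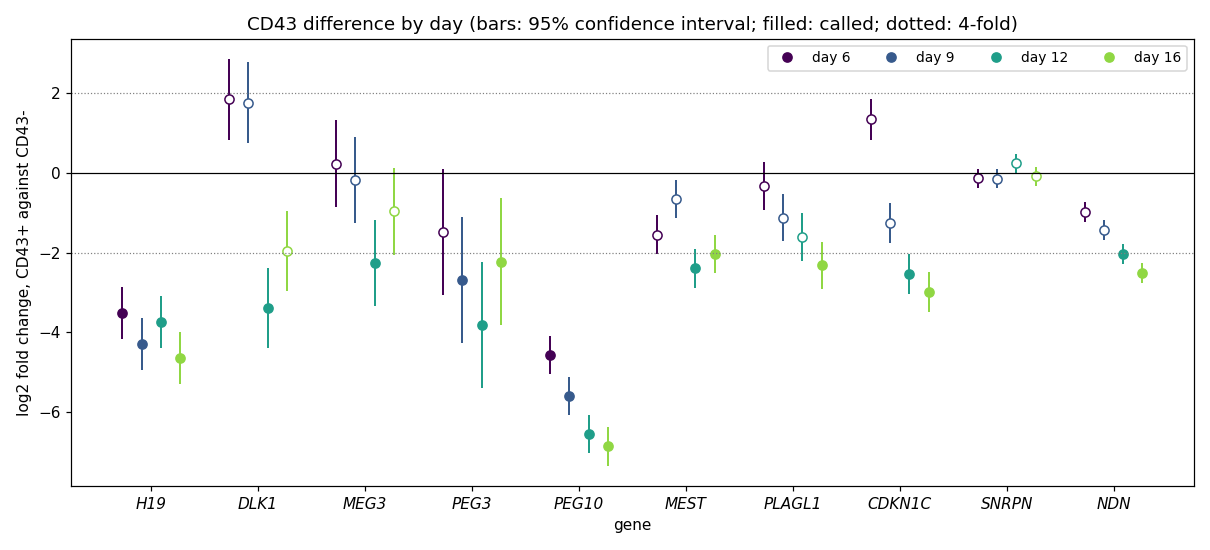
Log2 fold change of value + 1, CD43+ against CD43- cells of the same day (vertical axis), for the 10 genes (horizontal axis), coloured by day. Bars are 95% confidence intervals, filled points were called, and dotted lines mark 4-fold. PEG10 ran from -4.57 on day 6 to -6.86 on day 16, DLK1 and CDKN1C lay above 0 on day 6 and below it on days 12 and 16, and SNRPN lay within 0.24 of 0.

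The sort was checked on blood markers. SPN, which encodes CD43, had a mean of 7183 in day 6 CD43+ cells against 32.0 in day 6 CD43- cells, and the 8 blood markers together were called higher in CD43+ cells for 7, 8, 8 and 8 genes on days 6, 9, 12 and 16. PTPRC, which encodes CD45, was under 10 in every day 6 CD43+ sample. The sum of blood markers in CD43- cells was 556 to 939 on day 6, 845 to 7775 on day 12 and 7228 to 19071 on day 16, so the day 16 CD43- samples carried blood transcripts at a sum far under the 134008 to 140007 of the CD43+ samples. CD43- cells were rich in mesenchymal markers. Their sum over 10 genes such as COL1A1 and PDGFRB was 192609 to 230086 in CD43- and 59710 to 156428 in CD43+ cells on day 6, and 289091 to 298201 against 7609 to 16054 on day 16. Of these 10, the number called lower in CD43+ cells was 7 on day 6 and 10 on each later day. COL1A1 and COL1A2 had overlapping groups on day 6 (log2 -0.36 and 0.18). The sums of markers weigh genes of high value most. COL1A1 and COL3A1 each had a mean of 90700 in day 16 CD43- cells, and MPO had it in day 16 CD43+ cells. Endothelial markers were called lower for 0, 5, 5 and 6 of 8 genes, endoderm and yolk sac markers for 6, 6, 5 and 7 of 7, trophoblast markers for 1, 3, 5 and 4 of 6, and pluripotency markers for 4, 1, 2 and 2 of 6. Cell cycle markers were called higher for 0, 1, 3 and 5 of 6. On each day members were thus called lower in CD43+ cells beside markers of other cell types, but the numbers did not all run together. On day 6, 0 of the 8 endothelial markers were called lower, and pluripotency markers had their largest number then. The part of these markers in the differences was not tested. In such bulk samples, fewer cells of a type and less RNA per cell cannot be told apart.

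H19 (chr11:1995163-2001470, hg38, minus strand) is a long non-coding RNA that hosts a microRNA and is abundant in fetal tissue of mesoderm and endoderm. Its value was 464 in undifferentiated H1 cells, 128, 182 and 182 in day 0 EBs and 328, 268 and 325 in day 2 cells. On day 4 it was 90700, 29000 and 90700. H19 thus went from place 8550 to 9213 among the genes of a day 2 sample to place 1 to 37 on day 4. Genes of equal value were given the same best place, and 10 genes held the maximum in every sample. The rise was 7.66 on the log2 scale (SE 0.31, adjusted p = 3.44e-16 in limma). Its size is limited by the table's maximum of 90700, which day 4 samples reached. The sum of the 10 mesenchymal markers went from 12048 to 14369 on day 2 to 138749 to 197249 on day 4, and its part in the rise was not tested.

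In CD43- cells H19 remained near the top. It read 90700 in all 3 samples on day 6, 90700, 90700 and 48030 on day 9, 48030, 37166 and 37166 on day 12, and 37166 in all 3 on day 16. In CD43+ cells it read 7478, 6357 and 10426 on day 6, 2952, 3258 and 5476 on day 9, 2448, 2716 and 4234 on day 12, and 1439, 1724 and 1330 on day 16. Every CD43+ sample was under every CD43- sample of its day. The fold was 11.5 on day 6 (log2 -3.52, SE 0.31, adjusted p = 7.44e-10), 19.6 on day 9, 13.3 on day 12 and 24.9 on day 16 (log2 -4.64, adjusted p = 6.86e-13), lower in CD43+ cells each time. Since 7 of the 34 samples were at the table's maximum, the size of the difference on days 6 and 9 is limited by the scale. H19 in day 16 CD43+ cells was still above the 464 of undifferentiated H1 cells.

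MEG3 (chr14:100779410-100861031, plus strand) is the maternally expressed long non-coding RNA of the DLK1-MEG3 domain. It read 80 in undifferentiated H1 cells and 281, 152 and 192 in day 0 EBs, then 19, 29 and 20 on day 2 and 32, 64 and 56 on day 4. The day 2 samples were all under the day 0 samples, a fall of 3.12 on the log2 scale (SE 0.53, adjusted p = 3.34e-05). MEG3 was the member called between those days.

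On days 6 and 9 the sorted populations of MEG3 overlapped. Values were 225, 273 and 75 in CD43- and 278, 294 and 92 in CD43+ cells on day 6 (log2 0.23, SE 0.53, adjusted p = 0.744), and 129, 286 and 497 against 144, 257 and 344 on day 9 (log2 -0.18, adjusted p = 0.787). On day 12 the CD43- cells reached 2255, 3738 and 6052 and the CD43+ cells 400, 1015 and 1124, which did not overlap. CD43+ cells were 4.81-fold lower (log2 -2.27, SE 0.53, adjusted p = 4.55e-04), a call that leaving out CD43- replicate 3 (-1.91) or CD43+ replicate 1 (-1.79) ended. By day 16 the values were 557, 471 and 1052 in CD43- and 302, 295 and 416 in CD43+ cells, with a difference of -0.96 (SE 0.53, adjusted p = 0.109).

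CDKN1C (chr11:2883213-2885881, minus strand) encodes p57, an inhibitor of cyclin-dependent kinases that stops cells from dividing. It read 296 in undifferentiated H1 cells, 248, 244 and 239 in day 0 EBs, 294, 312 and 362 on day 2 and 1096, 1102 and 1280 on day 4. The rise from day 2 to day 4 was 3.59-fold (log2 1.84, SE 0.25, adjusted p = 1.02e-06). On day 6 it was 4894, 4652 and 5032 in CD43+ and 1485, 1633 and 2912 in CD43- cells. All day 6 CD43+ samples were above all CD43- samples, by 2.53-fold (log2 1.34, SE 0.25, adjusted p = 5.55e-05).

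From day 9 the order of CDKN1C was the opposite. The CD43- samples read 4422, 8264 and 3343 on day 9, 5550, 9230 and 8793 on day 12, and 13998, 13998 and 12826 on day 16. The CD43+ samples read 1956, 1654 and 2730, then 1219, 1532 and 1256, then 1879, 1870 and 1434. No day had overlapping groups, and CD43+ cells were lower by a log2 difference of -1.26 on day 9 (adjusted p = 6.31e-05), 5.77-fold lower on day 12 (log2 -2.53, SE 0.25, adjusted p = 7.57e-10) and 7.93-fold lower on day 16 (log2 -2.99, adjusted p = 3.19e-11). The CD43 difference changed by -3.87 on the log2 scale between days 6 and 12 (SE 0.35, adjusted p = 1.16e-09, an interaction tested in limma). Cell cycle markers, which do not include CDKN1C, summed to 2173 to 2749 in day 16 CD43- cells and 11925 to 14401 in day 16 CD43+ cells, while on day 6 they summed to 8091 to 12402 and 12548 to 14676. None of the 6 was called on day 6, and MKI67 was the one with an adjusted p below 0.05 (0.0394).

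DLK1 (chr14:100725705-100738224, plus strand) encodes a membrane protein with EGF-like repeats, related to Notch ligands and found on fetal progenitors and preadipocytes. It was low early, at 24 in undifferentiated H1 cells, 13, 40 and 17 in day 0 EBs, 50, 126 and 20 on day 2 and 88, 144 and 146 on day 4. On day 6 it read 1314, 684 and 894 in CD43+ cells and 222, 270 and 289 in CD43- cells, and on day 9 it read 8504, 9722 and 8504 against 1580, 4114 and 2774. In both cases every CD43+ sample was higher, by 3.58-fold on day 6 (log2 1.84, SE 0.49, adjusted p = 0.00277) and 3.39-fold on day 9 (log2 1.76, adjusted p = 0.00267). Both stayed under 4-fold, and passed 4-fold without CD43+ replicate 2 of day 6 (2.06) or CD43- replicate 2 of day 9 (2.09).

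DLK1 then rose in CD43- cells to 18763, 18763 and 37178 on day 12 and 22830, 15858 and 29015 on day 16. In CD43+ cells it read 1300, 3062 and 2865 on day 12 and 7032, 7907 and 3224 on day 16. The groups did not overlap on either day. CD43+ cells were 10.5-fold lower on day 12 (log2 -3.39, SE 0.49, adjusted p = 8.45e-07) and 3.88-fold lower on day 16 (log2 -1.96, adjusted p = 9.90e-04). The day 16 difference passed 4-fold without CD43- replicate 2 (-2.19), CD43+ replicate 1 (-2.12) or CD43+ replicate 2 (-2.20). Between days 6 and 12 the CD43 difference changed by -5.23 (SE 0.69, adjusted p = 7.90e-07).

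DLK1 and MEG3 lie 41186 bases apart on the same strand and are expressed from opposite parental copies. Their mean log2 values over the 11 replicated populations had a Pearson's r of 0.757. Both had their highest mean in day 12 CD43- cells, where MEG3 rose 14.0-fold and DLK1 8.98-fold over day 9 CD43- cells (adjusted p = 4.53e-06 and 1.85e-05). They parted between days 0 and 2, when MEG3 fell and DLK1 had a difference of 1.24 with overlapping groups (SE 0.49, adjusted p = 0.0493). They also parted from day 6 to day 9. The mean of DLK1 went from 260 to 2823 in CD43- and from 964 to 8910 in CD43+ cells. That of MEG3 went from 191 to 304 in CD43- and from 221 to 248 in CD43+ cells. After day 12 MEG3 fell by 2.51 in CD43- cells (SE 0.53, adjusted p = 3.76e-04), while the difference of DLK1 was -0.11 (adjusted p = 0.884).

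PEG10 (chr7:94656325-94669695, plus strand) derives from a retrotransposon and is required for placenta formation. It read 3320 in undifferentiated H1 cells, 2932, 3242 and 3159 in day 0 EBs, 5190, 6002 and 5635 on day 2 and 9488, 8675 and 6913 on day 4. In CD43- cells it read 4372, 6066 and 6913 on day 6, 4604, 6580 and 5552 on day 9, 12000, 9488 and 13314 on day 12, and 12830, 11500 and 11500 on day 16. In CD43+ cells it read 176, 247 and 314, then 85, 130 and 134, then 139, 88 and 150, then 142, 103 and 72.

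At 72 to 314, the CD43+ samples of PEG10 all lay under the lowest of the other samples, which read 2932. CD43+ cells were 23.7-fold lower on day 6 (log2 -4.57, SE 0.23, adjusted p = 3.50e-14), 48.0-fold on day 9, 93.1-fold on day 12 and 116-fold on day 16 (log2 -6.86, SE 0.23, adjusted p = 5.26e-19). Compared with the unsorted day 4 cells, day 6 CD43+ cells were 34.5-fold lower. On each of the 4 days PEG10 had the largest measured difference of the 10 members, though on days 6 and 9 that of H19 was limited by the table's maximum. Over that step the sum of mesenchymal markers went from 138749 to 197249 in day 4 cells to 59710 to 156428 in day 6 CD43+ cells, and its part in the fall was not tested.

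PEG3 (chr19:56810083-56840728, minus strand), a zinc finger protein gene, was near the filter on low values. It read 4 in undifferentiated H1 cells, 6, 10 and 14 in day 0 EBs, 26, 35 and 36 on day 2 and 34, 40 and 19 on day 4. In CD43- cells it read 6, 18 and 8 on day 6, 6, 20 and 26 on day 9, 13, 14 and 26 on day 12, and 6, 8 and 20 on day 16. In CD43+ cells it read 2, 8 and 1, then 0, 4 and 2, then 0, 0 and 1, then 0, 12 and 0. Groups overlapped on days 6 and 16 and not on days 9 and 12. PEG3 was called lower in CD43+ cells on day 9 (log2 -2.68, SE 0.77, adjusted p = 0.00341), day 12 (-3.82, adjusted p = 8.74e-05) and day 16 (-2.22, adjusted p = 0.0129). With a pseudocount of 10 in place of 1 the 3 calls were lost, at -1.12, -1.39 and -0.66.

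MEST (chr7:130486171-130506296, plus strand) encodes a hydrolase-like protein of mesoderm. It read 3570 in undifferentiated H1 cells, 3606, 3680 and 3751 in day 0 EBs, 2913, 2675 and 3081 on day 2 and 4238, 4712 and 4540 on day 4. CD43- cells read 6913, 11189 and 12000 on day 6, 8675, 10824 and 11189 on day 9, 11189, 9717 and 13998 on day 12, and 7481, 8076 and 8675 on day 16. CD43+ cells read 3570, 3258 and 3205, then 5402, 6693 and 7481, then 1312, 2822 and 2822, then 2174, 2612 and 1330.

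CD43+ samples of MEST were below CD43- samples on each day, with no overlap. The difference was -1.55 on day 6 (SE 0.24, adjusted p = 4.56e-06), -0.65 on day 9 (adjusted p = 0.0169), -2.39 on day 12 (adjusted p = 9.31e-10) and -2.04 on day 16 (adjusted p = 1.90e-08), of which the last 2 passed 4-fold. Leaving out replicate 3 of either day 16 population took the difference under 4-fold (-1.99 and -1.76). Within CD43+ cells MEST rose 1.94-fold from day 6 to day 9 (adjusted p = 0.00265) and fell by 1.56 on the log2 scale from day 9 to day 12 (adjusted p = 2.98e-06).

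PLAGL1 (chr6:143940300-144064599, minus strand) encodes a zinc finger transcription factor with a role in growth arrest. It was at 20 in undifferentiated H1 cells, 13, 8 and 13 in day 0 EBs, 40, 64 and 38 on day 2 and 1197, 1710 and 1190 on day 4. The increase from day 2 to day 4 was 28.6-fold (log2 4.84, SE 0.29, adjusted p = 5.25e-13), and it followed a difference of 1.96 between days 0 and 2 (adjusted p = 5.83e-06). H19 and PLAGL1 were the 2 members called between days 2 and 4.

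On day 6 PLAGL1 read 6690, 4504 and 1749 in CD43- and 3108, 2892 and 2931 in CD43+ cells, which overlapped (log2 -0.33, SE 0.29, adjusted p = 0.359). Later values were 3934, 2395 and 2755 against 1536, 1210 and 1360 on day 9, 2612, 2788 and 3482 against 861, 944 and 1082 on day 12, and 5398, 6135 and 6242 against 1162, 1137 and 1248 on day 16. From day 9 on the groups were separate. CD43+ cells were 2.17-fold lower on day 9 (adjusted p = 0.00147), 3.06-fold on day 12 (adjusted p = 2.14e-05) and by more than 4-fold on day 16 (log2 -2.32, SE 0.29, adjusted p = 8.33e-08), when it was called.

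NDN (chr15:23685400-23687330, minus strand) encodes necdin, a MAGE family protein known for restraining growth in neurons and in blood stem cells. It read 550 in undifferentiated H1 cells, 700, 590 and 528 in day 0 EBs, 538, 624 and 647 on day 2 and 661, 684 and 697 on day 4. In CD43- cells it read 818, 826 and 968 on day 6, 996, 1478 and 1102 on day 9, 1183, 1224 and 1344 on day 12, and 1560, 1539 and 1404 on day 16. In CD43+ cells it read 450, 447 and 430, then 405, 469 and 438, then 298, 273 and 338, then 262, 244 and 283.

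Unsorted cells lay between both sorted populations for NDN. CD43+ cells were 1.96-fold lower on day 6 (log2 -0.97, SE 0.12, adjusted p = 2.64e-07), 2.69-fold on day 9 (adjusted p = 1.08e-10), 4.13-fold on day 12 (log2 -2.04, adjusted p = 5.05e-14) and 5.69-fold on day 16 (log2 -2.51, adjusted p = 8.17e-16), with no overlap on any day. The day 12 difference is close to 4-fold, and leaving out CD43- replicate 3 (-1.99) or CD43+ replicate 2 (-1.97) took it under. Day 6 CD43+ cells were already under day 4 cells, by 1.54-fold (adjusted p = 1.27e-04).

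SNRPN (chr15:24823637-24978723, plus strand) encodes a core protein of the spliceosome. It was highest at the start, at 11992 in undifferentiated H1 cells and 11992, 10423 and 10073 in day 0 EBs, and went to 7150, 6810 and 6063 on day 2 and 2742, 2572 and 2951 on day 4. No sample of 1 day overlapped the next, and the falls were 0.70 (SE 0.11, adjusted p = 2.32e-05) and 1.28 (adjusted p = 1.08e-09) on the log2 scale, each under 4-fold. Pluripotency markers summed to 68871 to 78727 on day 0, 58284 to 64379 on day 2 and 17680 to 20575 on day 4, and their part in the fall was not tested.

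In the sorted cells SNRPN differed little with CD43. It read 2549, 3257 and 2973 in CD43- and 2345, 2715 and 2930 in CD43+ cells on day 6, 2730, 2367 and 2876 against 2459, 2322 and 2394 on day 9, 1539, 1670 and 1535 against 1514, 2006 and 2134 on day 12, and 2539, 2384 and 2394 against 2459, 2322 and 2113 on day 16. The groups overlapped each day, with differences of -0.13, -0.15, 0.24 and -0.09 (SE 0.11) and adjusted p of 0.344, 0.262, 0.0671 and 0.511. SNRPB, the gene of the closely related SmB protein, was higher in CD43+ cells by 0.37 to 0.71 on the log2 scale, under 4-fold on each day. SNRPN overlaps SNURF and SNHG14 on its own strand, so reads shared with them cannot be assigned with certainty.

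Members were also compared from one time to the next, in comparisons that share populations with each other. Between days 0 and 2, MEG3 was the 1 member called, with 7.88% of all genes called, and between days 2 and 4 there were 2 with 9.5%. From unsorted day 4 cells to day 6 CD43+ cells 5 were called, with 14.5% of all genes. H19 fell by 2.97, PEG3 by 3.02 and PEG10 by 5.11 on the log2 scale, and DLK1 rose by 2.91 and CDKN1C by 2.07. The size of the fall of H19 is limited by the table's maximum, which day 4 samples reached. To day 6 CD43- cells 0 were called with 7.71% of all genes, and 7 members had an unadjusted p below 0.05 in limma, beside 51.9% of all genes.

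Within CD43+ cells, DLK1 alone was called from day 6 to day 9 (9.56-fold up, adjusted p = 9.70e-06), where 7.53% of genes were called. From day 9 to day 12 the count was 0 with 15% of genes, and from day 12 to day 16 it was 0 with 9.05%, while 6 and 4 members had an unadjusted p below 0.05 in limma, beside 60.4% and 50% of genes. Within CD43- cells, DLK1 was called from day 6 to day 9 (10.1-fold up, adjusted p = 7.52e-05, with 1.75% of genes), DLK1 and MEG3 from day 9 to day 12 (7.33%), and MEG3 from day 12 to day 16 (10.4%). DLK1 thus rose in both sorted populations over days 6 to 9. The change of the CD43 difference between days 6 and 12 was called for 3 members, DLK1, CDKN1C and MEG3, with 18.5% of genes. Between days 12 and 16 it was called for 0 members with 5.03% of genes, and 2 members had an unadjusted p below 0.05 in limma, beside 31.1% of genes.

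Neighbours in the same imprinted domains were read beside the members. Of 23 listed, 17 were in the table and tested. The numbers called lower in CD43+ cells were 4, 6, 6 and 7 on days 6, 9, 12 and 16, beside 7.85%, 12.8%, 14.4% and 13.6% of all genes. Those called higher were 0, 1, 1 and 2, beside 4.68%, 8.65%, 11.8% and 12.2% of all genes. The median log2 fold changes of these neighbours were -0.69, -1.23, -0.32 and -0.37. IGF2, the fetal growth factor next to H19 and expressed from the other parental copy, went from 117, 112 and 48 on day 2 to 18751, 17338 and 22812 on day 4. Its CD43 differences were -3.93, -4.98, -3.90 and -4.75, and those of H19 were -3.52, -4.29, -3.73 and -4.64. CDKN1C lies 881743 bases from H19 in a separately controlled domain, where the antisense RNA KCNQ1OT1 had differences of -0.23, -1.23, -2.18 and -1.80 and was called lower on day 12, and SLC22A18, a transporter gene, was called higher on day 16 (2.04).

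SGCE, the sarcoglycan gene that overlaps PEG10 head to head on the opposite strand, read 296, 355 and 402 in CD43- and 29, 16 and 48 in CD43+ cells on day 6. On day 16 it read 792, 766 and 786 against 0, 16 and 11. Its differences were -3.58, -6.16, -6.50 and -7.05, beside -4.57, -5.59, -6.54 and -6.86 for PEG10. Whether counting used strand is not stated in the sources used here, so reads in the shared stretch of PEG10 and SGCE cannot be told apart. PPP1R9A, further along in that domain, was not called on any of the 4 days. MEST overlaps COPG2 and MESTIT1 on the opposite strand, with the same limit, and neither of these was called.

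In the DLK1-MEG3 domain, DIO3, which encodes an enzyme that inactivates thyroid hormone, was 3184, 3419 and 3241 on day 2 and 13, 20 and 6 on day 0, while MEG3 fell between those days. DIO3 was called lower in CD43+ cells on all 4 days (-2.33, -6.30, -6.00 and -5.94), and the retrotransposon-derived RTL1 on days 9, 12 and 16. On days 6 and 9 DIO3 was thus lower in the CD43+ samples in which DLK1 was higher. On chromosome 15, MAGEL2, a relative of NDN, had differences of -4.05, -5.66, -6.65 and -6.58 and was called lower each day, beside differences of -0.97, -1.43, -2.04 and -2.51 for NDN. ATP10A, a flippase gene of the same region, was called higher in CD43+ cells on days 9, 12 and 16 (3.54, 3.11 and 4.99), and UBE3A had differences of 0.39, 0.50, -0.13 and -0.37.

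Imprinted genes of other domains moved in both directions. Of 16, the number called lower in CD43+ cells was 1, 3, 3 and 4, beside 7.85%, 12.8%, 14.4% and 13.6% of all genes. The number called higher was 1, 1, 0 and 1, beside 4.68%, 8.65%, 11.8% and 12.2% of all genes. NNAT, which encodes neuronatin, read 1362, 695 and 950 in CD43- and 56, 30 and 48 in CD43+ cells on day 12. ZDBF2 read 1564, 1922 and 3458 against 400, 309 and 244 on that day. DIRAS3 was low in CD43- cells, at 4 to 8 on day 16, and listed at 0 in the 3 CD43+ samples. Among the exceptions were GNAS-AS1, higher in CD43+ cells on day 6 (2.17), WT1 on day 9 (3.67) and NLRP2 on day 16 (3.27). NLRP2 was near the filter on low values, at 6, 14 and 16 in CD43+ and 0, 0 and 1 in CD43- cells.

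Factors that keep or set methylation at imprinted regions were also read, 11 of them tested. On each of days 6 and 9, 1 was called higher in CD43+ cells, beside 4.68% and 8.65% of all genes. On days 12 and 16 the number was 0, beside 11.8% and 12.2% of all genes. On those days 6 and 8 had an adjusted p below 0.05 in limma without reaching 4-fold, beside the 68% and 67.4% of all genes past that p. Among them ZNF445 and DNMT3A were lower in CD43+ cells on both days and TRIM28 on day 16, and the others were higher. DNMT3B, a de novo DNA methyltransferase, read 774, 676 and 751 in CD43- and 4511, 3576 and 4481 in CD43+ cells on day 9, a difference of 2.51. The germ line factor DPPA3 was called higher on day 6 at means of 8.67 against 1.33. It was near the filter on low values, at 6, 12 and 8 in CD43+ and 0, 4 and 0 in CD43- cells. Of 7 proteins related to members, DLK2, the closest relative of DLK1, was called lower in CD43+ cells on days 6 and 9. Of all genes, 7.85% and 12.8% were called lower on those days. On day 6 DLK2 read 73, 134 and 126 in CD43- and 12, 24 and 18 in CD43+ cells, where DLK1 was higher.

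Across the 11 replicated populations, genes with the course most like that of a member were found by Pearson's r of mean log2 values. The points share the normalisation and the cell line, so r is a description. For PEG10 the nearest genes were PHLDB2 (0.988), SGCE (0.986) and SDK2 (0.985), and SGCE thus came second of all genes tested. The nearest were DACT3, TFPI and TMEM88 for H19 (0.969 to 0.977), CCDC68, PIGH and PCSK6 for DLK1 (0.965 to 0.978), NRK, SH2D4A and PRSS12 for PEG3 (0.977 to 0.981) and TMEM44, MAGI2-AS3 and FZD6 for MEST (0.936 to 0.941). They were ESAM, PYROXD2 and GNG11 for PLAGL1 (0.966 to 0.978), HTRA3, IL11RA and NORAD for CDKN1C (0.961 to 0.971) and TMEM184B, SULF1 and PARD6B for NDN (0.980 to 0.983). For SNRPN they were CTD-2354A18.1, RPL39L and MGC32805 (0.972 to 0.983), and for MEG3 DDX3Y, COG5 and ASH1L (0.919 to 0.931).

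Between members, r was highest for PEG3 and PEG10 (0.916), PLAGL1 and CDKN1C (0.895) and PEG10 and NDN (0.888). Next came H19 and PLAGL1 (0.862) and MEST and NDN (0.862). PEG3 read 0 to 40 over all samples, so every r of PEG3 rests on values near the filter on low values. SNRPN ran opposite to PLAGL1 (-0.887) and DLK1 (-0.828). Sharing a chromosome went with no one pattern, since r was 0.746 for H19 and CDKN1C, 0.757 for DLK1 and MEG3, 0.627 for PEG10 and MEST and -0.03 for SNRPN and NDN, which lie 1136307 bases apart.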

How the data were processed

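RNA from 34 samples of H1 cells was sequenced, and the submitters' notes name bcl2fastq, STAR 2.7, Bowtie2 and RSEM with build hg38. The authors normalised gene counts for GC content and between samples with EDASeq and deposited whole-number values. The deposited values have the same distribution in every sample (sum 17856940, maximum 90700), so they were treated as a score, not as counts or CPM, and depth is unknown. Counting intervals were therefore not given. The deposited table also gives GC content in percent and gene coordinates. Undifferentiated H1 cells (1 sample) entered no test.

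Log2(value + 1) of 33 samples was fitted in 1 model of 11 populations by lmFit and trended eBayes (limma 3.58.1, R 4.3.3). Of 20255 genes, the 19788 that reached 10 in 3 or more samples were tested, with Benjamini-Hochberg adjustment over all of them, and called at an adjusted p below 0.05 with a fold change above 4. The procedure was tested on simulated data. The methods describe independent biological replicates. Deviations of same-numbered samples correlated at 0.109 to 0.199 on day 6 and -0.0152 to 0.108 on later days. The main fit paired no samples, and a block by replicate number, over all populations or within day 6, was an alternative only. Alternatives were other pseudocounts, filters and scaling, robust variances, a fit restricted to the compared populations, a replicate block and leaving out each replicate. No sequencing batch is given for the samples.

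The members, gene lists and tests were chosen with earlier results of these data known. All 10 members were described. From other lists the counts were given, with the 3 called genes of largest difference whose groups did not overlap, genes of the members' domains and the 3 genes of most similar course. SNRPB, SPN and PTPRC were named after their values were seen. Promoters came from RefSeq (GRCh38.p14) and overlaps from GENCODE.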

Additional observations from a re-analysis of the deposited data

Results flagged for a closer look

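The CD43 difference (CD43+ against CD43- cells, log2 scale) differed between days 6 and 12 for 3 members by a test of the interaction in limma. It changed by -5.23 for DLK1 (SE 0.69, adjusted p = 7.90e-07), from 1.84 to -3.39, with all 3 CD43+ samples above the CD43- samples on day 6 and all 3 below on day 12. For CDKN1C it changed by -3.87 (SE 0.35, adjusted p = 1.16e-09), from 1.34 to -2.53, again with separate groups on both days. For MEG3 the change was -2.50 (SE 0.75, adjusted p = 0.00773), from 0.23 with overlapping groups to -2.27 with separate groups.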

How the results depend on the processing

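Values near 4-fold, low values and the table's maximum limit these results most, and depth is unknown. The count of members called between day 0 EBs and day 2 cells went from 1 to 2 at a pseudocount of 0.1, and that between day 6 and day 9 CD43- cells from 1 to 0 in a fit of only those populations, where fewer samples give the spread. Leaving out 1 replicate gave counts of 2 to 4 for the CD43 comparison of day 6 (4 without CD43+ replicate 2, which added DLK1 and PEG3, at -2.12), 3 to 4 for day 9, 6 to 8 for day 12 (6 without CD43- replicate 3), 5 to 8 for day 16 (5 without replicate 3 of either population), 1 to 2 between days 0 and 2, 0 to 2 from day 4 to day 6 CD43- cells (2 without CD43- replicate 3) and 0 to 1 from day 9 to day 12 CD43+ cells. The sign of uncalled differences turned for MEG3 on day 6 (-0.34 to 0.78) and day 9 (-0.69 to 0.28) and for PLAGL1 on day 6 (-0.88 to 0.084). PEG3 lost its day 16 call in the fit of only those populations (-2.22), and without CD43- replicate 3 (-1.76), CD43+ replicate 1 (-1.61) or CD43+ replicate 3 (-1.61). With the replicate block the members called lower in CD43+ cells remained 2, 3, 8 and 7 in number on days 6, 9, 12 and 16, and no member's call in these comparisons changed. PEG3 gave no value at a minimum of 100 in 3 samples, which it did not reach. The causes were not tested.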
